A study of Mus musculus with 14 samples.

Results

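The Nodal pathway regions described here were the open chromatin regions assigned to 8 genes: the ligand Nodal, its co-receptor Tdgf1, the secreted inhibitors Lefty1, Lefty2 and Cer1, the transcription factor Gsc, which is a target of the pathway, and the intracellular inhibitors Smad7 and Skil. Overlapping peaks of the 14 libraries (shared length of 1 bp or more) were joined into regions. A region was taken for a member gene when the start of that gene was the nearest protein-coding gene start in GENCODE vM21 and lay within 50 kb of the region's midpoint. By this rule 76 of 124598 regions belonged to the 8 genes, with 29 at Smad7, 12 at Gsc, 11 at Skil, 6 each at Nodal and Lefty2, 5 at Lefty1, 4 at Cer1 and 3 at Tdgf1. The regions closest to the limit on its inner side lay 48598 bp and 49348 bp upstream of Cer1. The closest on its outer side lay 51989 bp downstream and 53460 bp upstream of Smad7 and were not counted.

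Accessible DNA was mapped with ATAC-seq, where a transposase inserts sequencing adapters into open chromatin, in KH2 mouse embryonic stem (ES) cells of strain C57BL/6. All libraries came from cells with the transgene TRE:GATA6-DSREd2, present as a single copy from which doxycycline (Dox) induces GATA6 and a red fluorescent protein. The 2 libraries of 0 h were made in 2i medium without Dox, and 2 libraries per time point followed after 2, 4 and 8 h in serum medium with Dox at 1 µg/mL and after 16, 24 and 48 h, when Dox had been given for 12 h and then removed. Each library held 50000 cells. The change of medium and the induction of GATA6 coincided at 2 h, no serum library without Dox was analysed here, and medium and GATA6 therefore cannot be told apart in any comparison with 0 h. No label says whether the 2 libraries of a time point came from separate cultures, and the spread between them may be only technical. The p-values below treat every library as a separate unit and would be too small if the cultures were shared.

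Nodal is a secreted factor of the TGF-beta family that signals through activin receptors and the co-receptor Tdgf1 (Cripto) to SMAD2 and SMAD3, which act on DNA with SMAD4 and partners such as FOXH1. The pathway induces its own ligand and its own inhibitors: the Lefty proteins block the ligand and its co-receptor, Cer1 (Cerberus-like) binds the ligand outside the cell, and Smad7 and Skil (SnoN) act inside it on the receptors and on the SMAD complexes. In the early embryo Nodal signalling maintains the epiblast, and Cer1 and Lefty1 are classical markers of the anterior visceral endoderm, a derivative of the primitive endoderm (PrE).

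The sequences of 7 regions are shown because these regions were open in only some of the time points or had the highest scores of their gene. Each is the central 200 bp of the region on the plus strand of GRCm38. Capitals mark short letter patterns found on either strand: the GATA word (AGATAA or AGATAG or TGATAA or TGATAG), the FOXH1 word (AATNCAC), the SMAD word (CAGAC) and the OCT word (ATGCAAA). No pair of these words overlapped in the windows shown. They lay at chr10:61415997-61416196 for Nodal, chr9:110948090-110948289 for Tdgf1, chr1:180924954-180925153 for Lefty1, chr1:180888813-180889012 for Lefty2, chr4:82885904-82886103 for Cer1, chr12:104492262-104492461 for Gsc and chr3:31089477-31089676 for Skil.
Nodal, 1876 bp upstream, open in all 14 libraries: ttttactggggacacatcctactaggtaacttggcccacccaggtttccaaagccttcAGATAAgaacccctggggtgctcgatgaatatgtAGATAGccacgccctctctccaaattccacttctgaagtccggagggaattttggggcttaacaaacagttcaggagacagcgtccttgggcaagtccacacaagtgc
Tdgf1, 2031 bp upstream, open from 0 to 24 h: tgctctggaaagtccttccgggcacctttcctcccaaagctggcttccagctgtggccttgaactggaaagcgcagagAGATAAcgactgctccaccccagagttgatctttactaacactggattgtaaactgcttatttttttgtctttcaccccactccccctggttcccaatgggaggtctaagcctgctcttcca
Lefty1, 9969 bp upstream, open from 0 to 16 h: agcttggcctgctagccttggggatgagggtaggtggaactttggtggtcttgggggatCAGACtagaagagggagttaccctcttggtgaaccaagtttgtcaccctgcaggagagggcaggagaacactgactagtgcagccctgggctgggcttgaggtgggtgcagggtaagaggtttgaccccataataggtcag
Lefty2, 4196 bp upstream, open from 0 to 24 h: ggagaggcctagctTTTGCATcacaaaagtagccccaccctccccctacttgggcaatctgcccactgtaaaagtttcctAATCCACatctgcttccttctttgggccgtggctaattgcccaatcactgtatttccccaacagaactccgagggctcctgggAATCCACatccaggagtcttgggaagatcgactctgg
Cer1, 855 bp upstream, open from 2 h on: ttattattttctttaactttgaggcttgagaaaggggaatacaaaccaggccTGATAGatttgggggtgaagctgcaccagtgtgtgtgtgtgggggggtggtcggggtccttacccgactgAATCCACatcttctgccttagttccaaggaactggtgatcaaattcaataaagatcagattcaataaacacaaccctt
Gsc, 19031 bp upstream, open from 2 h on: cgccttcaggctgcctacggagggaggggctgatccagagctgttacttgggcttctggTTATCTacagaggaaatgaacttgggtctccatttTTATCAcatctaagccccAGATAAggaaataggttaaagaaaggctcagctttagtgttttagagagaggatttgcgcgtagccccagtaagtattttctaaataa
Skil, 5482 bp upstream, open at 0 h only: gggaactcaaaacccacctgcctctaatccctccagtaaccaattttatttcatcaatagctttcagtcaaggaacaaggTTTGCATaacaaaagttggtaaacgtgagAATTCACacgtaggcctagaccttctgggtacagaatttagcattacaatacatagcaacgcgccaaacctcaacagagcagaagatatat

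The Gsc window held 3 GATA words, the Nodal window 2, and the Tdgf1 and Cer1 windows 1 each. The Lefty2 window held 2 FOXH1 words and 1 OCT word, the Skil window 1 of each, the Cer1 window 1 FOXH1 word and the Lefty1 window 1 SMAD word. Among all 76 member regions, the central 200 bp held a GATA word in 27 (35.5%), against 35.3% of all regions. The SMAD word stood in 34 (44.7%, against 41.4%), the FOXH1 word in 6 (7.89%, against 7.06%) and the OCT word in 3 (3.95%, against 5.45%). These shares were close to those of all regions, and a word is a run of letters and not a bound site.

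The lists held 55588 to 65073 peaks per library and no read counts, so depth is not known from them, and a region without a peak may still be open below the calling threshold of that library. The 2 libraries of a time point shared 73.6% to 75.8% of the regions that either called. Replicate 2 had more peaks at 7 of 7 time points, and the peaks of 48 h covered less of the genome, 23.0 and 25.6 Mb against 28.0 and 29.9 Mb at 0 h. The part of these differences in the calls below was not tested. Regions of 8 PrE marker genes (Gata4, Sox17, Sox7, Pdgfra, Foxa2, Lama1, Lamb1 and Dab2) were called 22 and 25 times in the libraries of 0 h and 62 times in each of 48 h, and the number of these genes with a region within 1 kb of the start in both libraries was 3 at 0 h and 7 at 48 h. For 8 genes of naive ES cells the corresponding numbers were 51 to 60 and 58 to 59 regions, and 5 and 4 genes. Lists of 5 trophoblast and 4 fibroblast genes had 25 to 28 and 6 to 7 regions called at 0 h, and 27 to 28 and 6 at 48 h.

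The member regions lay mostly away from promoters. Of the 76, 7 had their midpoint within 1 kb of the gene start, 12 between 1 and 5 kb, and 57 (75.0%) farther away, against 67.3% of all regions assigned to a gene. By annotation 50 were intergenic, 13 overlapped an exon and 13 lay in an intron, and the widths ran from 225 to 1507 bp with a median of 472.5 bp.

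**Figure D1:**
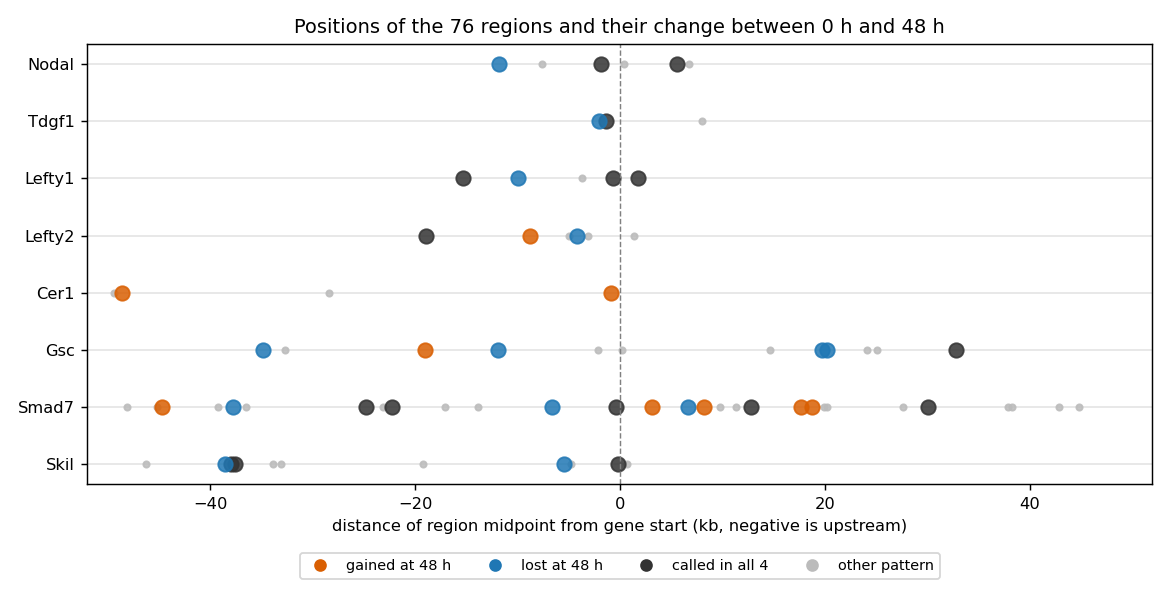
Position of each of the 76 regions relative to the start of its gene, in kb, with upstream to the left and 1 line per gene. Orange marks the 9 regions gained at 48 h against 0 h, blue the 13 lost, dark grey the 16 called in all 4 libraries of the 2 time points, and light grey the other 38. Nodal, Tdgf1, Lefty1 and Skil have no orange point. Cer1, without a call at 0 h, has no blue one.

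By gene, Cer1 gained regions and had no region called at 0 h that could be lost. Lefty1, Nodal and Tdgf1 lost 1 region each and Skil 2, without a gain. Gsc, Lefty2 and Smad7 both gained and lost regions. A region was called gained at a time point when both of its libraries and neither 0 h library had a peak in it, and lost in the reverse case. An exact two-sided permutation test of 2 libraries against 2 cannot go below p = 0.333, and these counts are therefore given without a p-value, beside the share over all regions. All later time points were compared with the same 2 libraries of 0 h. At 48 h, 9 of the 76 regions were gained (11.8%, against 14.5% of all regions) and 13 were lost (17.1%, against 16.6%). The 9 gained regions were 5 at Smad7, 2 at Cer1 and 1 each at Lefty2 and Gsc. The 13 lost regions were 4 at Gsc, 3 at Smad7, 2 at Skil and 1 each at Nodal, Tdgf1, Lefty1 and Lefty2. When 50% of a region had to be covered, Lefty1, Skil and Cer1 had 1 gained region each and Lefty2 had 0. The gained counts of the other genes stayed the same. With so few regions per gene, the differences between genes are a description only.

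The first response at 2 h comprised 9 gained regions (11.8%, against 8.64% of all regions) and 6 lost regions (7.89%, against 6.25%). The gained regions were 3 each at Smad7 and Skil and 1 each at Cer1, Gsc and Tdgf1, and the lost regions were 2 each at Smad7 and Skil and 1 each at Nodal and Gsc. Gained regions numbered 11, 13, 12 and 13 after 4, 8, 16 and 24 h, where the shares of all regions were 10.1%, 11.1%, 13.3% and 11.6%. Lost regions numbered 5, 6, 4 and 9 at the same times, against 7.37%, 9.99%, 9.71% and 13.2% of all regions. The gained share of the members was above that of all regions from 2 to 24 h and below it at 48 h, and no test of this difference was made because the genes were chosen with results of these data known.

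**Figure D2:**
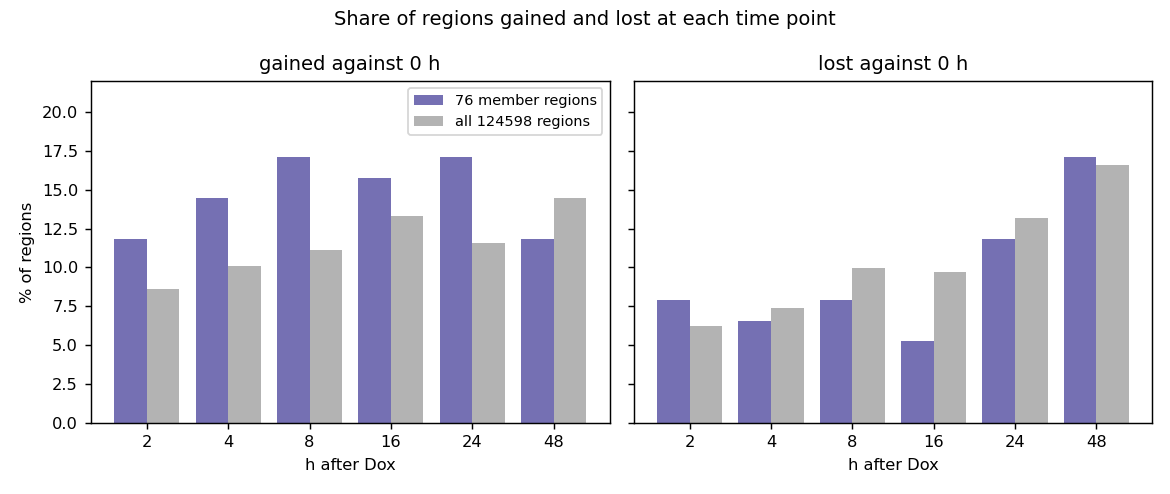
Percentage of regions gained (left) and lost (right) against 0 h at each later time point, for the 76 member regions (violet bars) and all 124598 regions (grey bars). Gained member regions range from 11.8% at 2 and 48 h to 17.1% at 8 and 24 h, and lost member regions from 5.26% at 16 h to 17.1% at 48 h.

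A trend over all 14 libraries was tested with an exact two-sided permutation test per region, which asks whether the libraries with a call lie early or late in the ranked times, with Benjamini-Hochberg adjustment across all 105789 regions called in 1 to 13 libraries. Of the 67 member regions tested, 2 rose with time, both at Smad7 (against 6.83% of all regions tested), and 4 fell, 2 at Gsc and 1 each at Lefty1 and Smad7 (against 6.5%). At an unadjusted p under 0.05 there were 22 member regions, against 35.0% of all regions tested. A region called in only 2 libraries, or absent from only 2, cannot go below p = 0.022 in this permutation test. Its adjusted p here was then at least 0.0719, so it could not pass whatever its time course. Each region given below with an adjusted p of 0.0719 is of this kind. With 1 library per time point, leaving out replicate 1 or replicate 2, 0 member regions and 0 of all regions passed the adjusted threshold. The other 9 member regions were called in all 14 libraries (11.8%, against 15.1% of all regions), 2 each at Nodal and Lefty1 and 1 at each of the other genes except Cer1, and had no trend to test. Of these 9, the score percentile, which is the rank of a peak's score within its own library from 0 to 100, was lower in both libraries of 48 h than in both of 0 h in 6 regions (30.5% of such regions in all) and higher in 2 (41.8%).

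Some time courses recurred across genes. Regions of Lefty1, Gsc and Smad7, 1 each, were called in all 10 libraries from 0 to 16 h and in none of 24 and 48 h, which made 3 of 76 regions (3.95%, against 1.15% of all regions). Regions of Cer1, Gsc and Smad7, 1 each, were called in no library of 0 h and in all 12 later ones (3.95%, against 1.17%). Regions of Nodal, Smad7 and Skil, 1 each, were called in both libraries of 0 h and never again (3.95%, against 3.65%). Among the 181 regions of other pathway genes, described below, these patterns made 0.552%, 1.66% and 2.21% in the same order. The patterns were not among the planned comparisons and follow the courses of single member regions, so nothing follows from their shares. A further 11 regions were transient, absent at 0 and 48 h and called in both libraries of at least 1 time point between (14.5%, against 13.9% of all regions), with 5 at Smad7, 4 at Skil and 1 each at Nodal and Tdgf1.

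**Figure D3:**
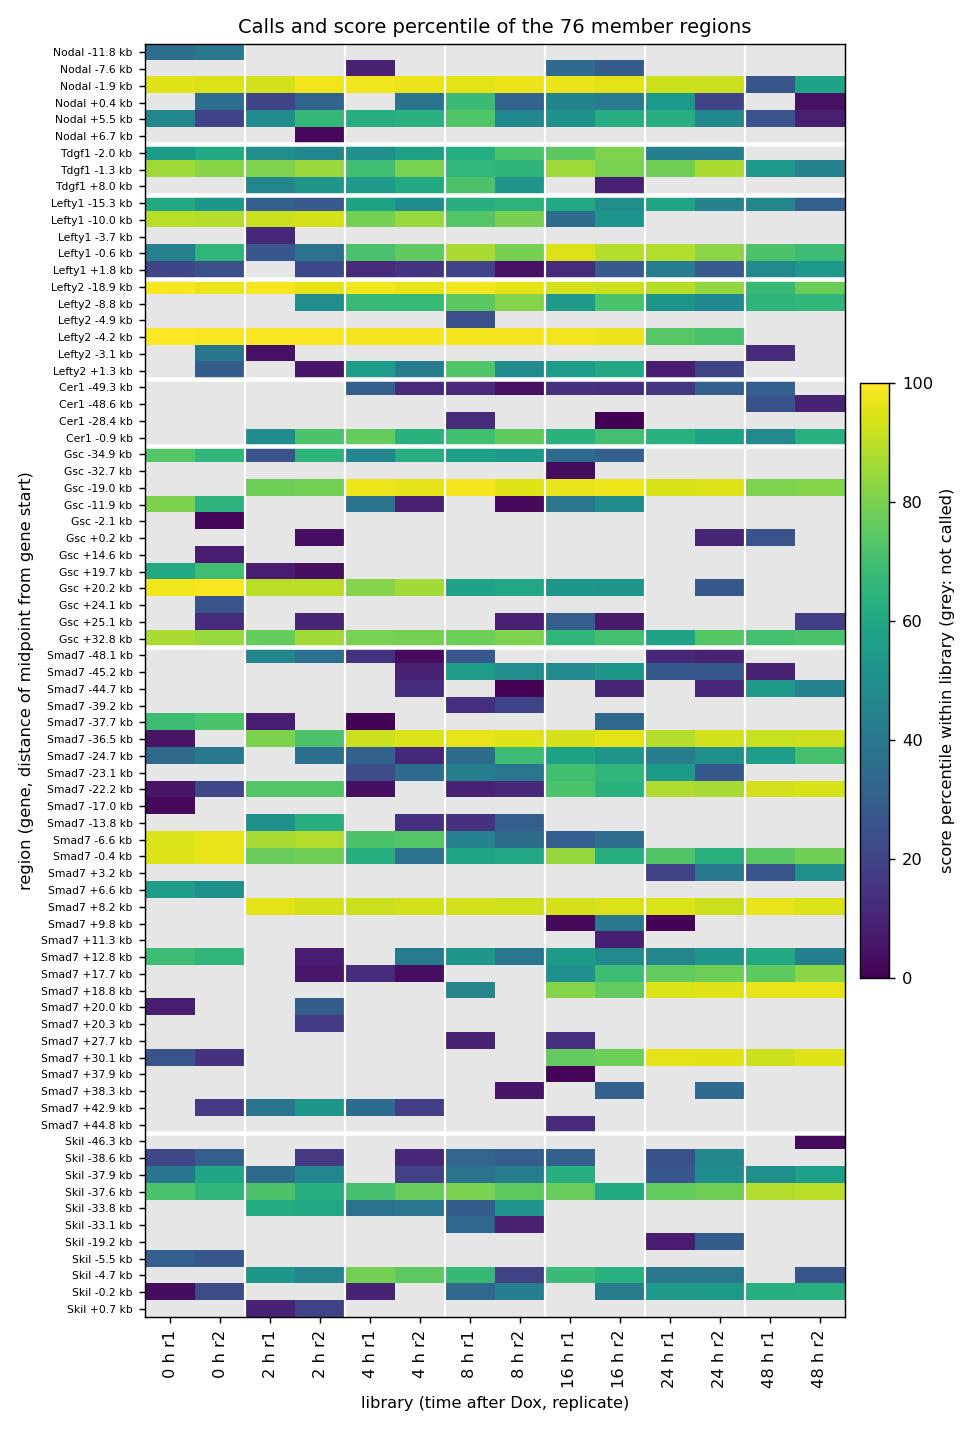
Calls in the 14 libraries (columns, 2 per time point) for the 76 member regions (rows, by gene and by distance of the midpoint from the gene start). Colour is the score percentile within the library from 0 (dark) to 100 (yellow), and grey means not called. The Lefty2 region 4196 bp upstream turns grey at 48 h, the Gsc region 19031 bp and the Cer1 region 855 bp upstream appear at 2 h, and the Smad7 region 18759 bp downstream is called in both libraries from 16 h.

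Counted over all 8 genes, 32 and 37 regions were called in the 2 libraries of 0 h, 43 and 44 at 16 h and 30 in each at 48 h. The base pairs covered were 17557 ± 2278 (SD, n = 2) at 0 h, 20375 ± 77.8 at 16 h and 13478 ± 1125 at 48 h. The count at 48 h thus lay below both libraries of 0 h and both of 16 h. Over the whole genome 54137 and 56966 regions were called at 0 h, 58410 and 62669 at 16 h and 51784 and 54532 at 48 h, so the number of all regions was also higher at 16 h than at 0 or 48 h. The genes differed in this course: the Cer1 count was 0 in both libraries of 0 h and 2 or 3 from 4 h on, the Lefty1 count was 4 in all 10 libraries up to 16 h and 3 in the 4 later ones, and the Tdgf1 count was 2 at 0 h, 3 at 2 to 8 h and 1 at 48 h.

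**Figure D4:**
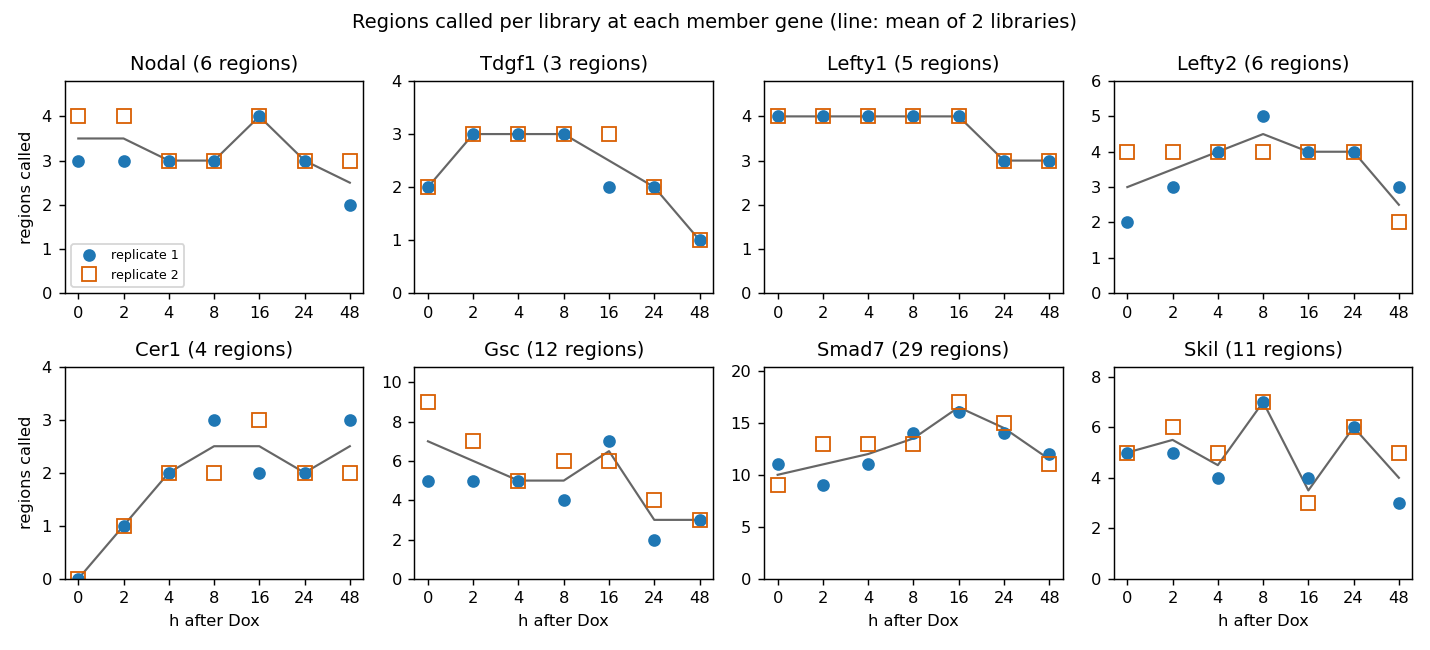
Number of regions called in each library at each of the 8 genes against hours after Dox (time points at equal spacing). Blue circles are replicate 1, orange squares replicate 2 and the line their mean. Cer1 starts at 0 in both libraries, Lefty1 steps from 4 to 3 between 16 and 24 h, Tdgf1 ends at 1, and Smad7 is highest at 16 h with 16 and 17 of its 29 regions.

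Nodal, the ligand (ENSMUSG00000037171, chr10:61417972-61425338, plus strand), kept its main region at lower rank and lost a distal one. The region with the highest median score lay 1876 bp upstream (chr10:61415615-61416578, intergenic) and was called in all 14 libraries. Its score percentile was 95.2 and 94.6 at 0 h, and it was between 92.1 and 97.8 in the 10 libraries from 2 to 24 h. At 48 h it was 26.8 and 58.1, below all 12 earlier values, and the 2 libraries of 48 h differed widely (42.5 ± 22.1, SD, n = 2, against 94.9 ± 0.434 at 0 h). A region 11813 bp upstream (chr10:61405782-61406536, intergenic) was called only at 0 h, at percentiles 36.1 and 40.1 (exact permutation test over 14 libraries, adjusted p = 0.0719).

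The region at the Nodal start itself (chr10:61417805-61418951, midpoint 406 bp downstream, overlapping the 5' part of the gene with UTR and coding exon) was called in 11 libraries. It was missing in replicate 1 at 0, 4 and 48 h and present in replicate 2 each time, at percentiles 36.0, 38.6 and 4.42, so at these times its calls differed between the 2 libraries of a time point. A region over a downstream coding exon (5547 bp, chr10:61423304-61423735) was called in all 14 libraries, at 45.8 and 19.9 at 0 h, 72.9 and 46.8 at 8 h and 26.5 and 8.92 at 48 h, and the values of 0 and 48 h overlapped. The last 2 regions were called in 3 libraries (7569 bp upstream, both of 16 h and 1 of 4 h) and in 1.

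Tdgf1, the co-receptor (ENSMUSG00000032494, chr9:110939603-110946158, minus strand), had 2 neighbouring regions upstream. The one with the higher scores, 1337 bp upstream (chr9:110947045-110947946), was called in all 14 libraries, at percentiles 85.9 and 82.2 at 0 h, between 64.9 and 87.2 from 2 to 24 h, and 53.4 and 43.8 at 48 h. The values of 48 h were again below all 12 earlier ones. The other, 2031 bp upstream (chr9:110947996-110948383), was called in all 12 libraries from 0 to 24 h, with 54.7 and 60.9 at 0 h, 74.7 and 80.6 at 16 h and 43.1 and 42.9 at 24 h, and in neither of 48 h (exact permutation test, adjusted p = 0.0719). When peaks within 200 bp of each other were merged, this region joined its neighbour and Tdgf1 had 0 lost regions.

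The remaining Tdgf1 region, 8039 bp downstream of the start (chr9:110937755-110938484), was transient. It was absent at 0 h, called in all 6 libraries from 2 to 8 h at percentiles of 45.9 to 71.9, called in 1 library of 16 h at 9.35, and absent afterwards. Within the 12 libraries in serum medium this region fell with time (exact permutation test, adjusted p = 0.0346).

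Lefty1 and Lefty2 are close paralogues on chromosome 1 whose starts lie 41914 bp apart, so that regions between them were divided by the nearer start, and how reads that match both genes were placed is not given in the sources used here. At Lefty1 (ENSMUSG00000038793, chr1:180935022-180938400, plus strand), the region 9969 bp upstream (chr1:180924601-180925506, intergenic) fell with time. Its percentiles were 89.8 and 89.0 at 0 h, 92.0 and 93.4 at 2 h, 79.1 and 84.5 at 4 h, 73.1 and 79.4 at 8 h and 35.2 and 52.7 at 16 h, and it was called in no library of 24 or 48 h. The libraries that called it and those that did not were separated completely by time (exact permutation p = 0.002, adjusted p = 0.0173), and within the serum libraries the adjusted p was 0.0346.

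The Lefty1 promoter region (chr1:180933719-180935072, midpoint 627 bp upstream, reaching into the 5' UTR) was open in all 14 libraries. It stood at percentiles 43.4 and 65.2 at 0 h and 27.1 and 37.1 at 2 h, then at 94.5 and 88.7 at 16 h and 72.2 and 68.7 at 48 h, so that every library from 4 h on was above both of 0 h and both of 2 h. A region 15278 bp upstream was also called in all 14 libraries, at 60.9 and 52.7 at 0 h and 45.9 and 30.8 at 48 h. A coding exon region 1771 bp downstream was called in 13 libraries, at 21.0 and 24.8 at 0 h and 46.9 and 53.2 at 48 h. Lefty1 thus had 1 region that was lost between 16 and 24 h, and 3 that were called in both libraries of 0 and 48 h.

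At Lefty2 (ENSMUSG00000066652, chr1:180893108-180899103, plus strand), the region 4196 bp upstream (chr1:180888308-180889516, intergenic) had the highest median score percentile of the 76. Its percentile was 99.8 and 99.6 at 0 h, 97.0 to 99.4 in the 8 libraries from 2 to 16 h, and 74.2 and 71.4 at 24 h, and it was called in neither library of 48 h. Being absent from 2 libraries only, it reached an exact permutation p of 0.022 and an adjusted p of 0.0719. The region 18924 bp upstream (chr1:180873889-180874479) was called in all 14 libraries and ranged from 98.9 and 96.9 at 0 h to 93.1 and 92.0 at 16 h, 89.4 and 83.8 at 24 h and 67.4 and 77.7 at 48 h.

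Between these, a region 8807 bp upstream of Lefty2 (chr1:180883906-180884696) was gained. It was absent at 0 h, called in replicate 2 only at 2 h (49.2), and called in all 10 libraries from 4 h on, at percentiles of 46.6 to 81.3. Its adjusted p was 0.0600 over all regions tested and 0.0370 when only regions called in at least 3 libraries were tested, and it was not counted as gained when 50% of a region had to be covered. A coding exon region 1342 bp downstream was called in 10 libraries, all between 0 and 24 h, with only replicate 2 at 0 and 2 h.

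Cer1, a secreted antagonist of Nodal and BMP (ENSMUSG00000038192, chr4:82881751-82885148, minus strand), had no called region at 0 h. The region 855 bp upstream of the start (chr4:82885558-82886449, intergenic) was absent in both libraries of 0 h and called in all 12 later ones. Its percentiles were 48.7 and 71.6 at 2 h, 76.3 and 63.8 at 4 h and 69.9 and 75.5 at 8 h. They were 64.0 and 70.1 at 16 h, 63.3 and 57.8 at 24 h and 47.6 and 63.5 at 48 h. The libraries of 4 to 16 h thus lay above those of 24 and 48 h, though narrowly (63.8 against 63.5). Those of 2 h spread over both ranges. The exact permutation p was 0.022 and the adjusted p 0.0719, the lowest that a region absent from only 2 libraries could reach. The whole region held 4 GATA words and 2 FOXH1 words, of which the window above shows 1 each.

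The other Cer1 regions lay in the neighbouring gene Frem1. The region in a Frem1 intron 48598 bp upstream (chr4:82933554-82933938) was called only in the 2 libraries of 48 h, at low percentiles of 25.2 and 9.86 (exact permutation test, adjusted p = 0.0719). Cer1 had 1 gained region in place of 2 at a limit of 20 kb, with every annotated transcript start or with the 50000 highest peaks per library. In these settings the region 48598 bp upstream was no longer among them. With 50% of the region covered Cer1 also had 1, and the region 855 bp upstream was then not gained (exact permutation p = 0.142, adjusted p = 0.344). A second intronic region 49348 bp upstream was called in 9 of the 10 libraries from 4 h on, at percentiles of 4.55 to 30.6, and a Frem1 coding exon region 28385 bp upstream in 2 libraries.

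Gsc, the homeobox gene goosecoid (ENSMUSG00000021095, chr12:104471209-104473330, minus strand), combined 1 gained region with 4 lost ones. The gained region lay 19031 bp upstream (chr12:104492088-104492634, intergenic), was absent in both libraries of 0 h and called in all 12 later ones. Its percentiles were 78.0 and 79.1 at 2 h, between 93.8 and 98.7 from 4 to 24 h, and 80.7 and 81.8 at 48 h, so that the libraries of 4 to 24 h lay above those of 2 and 48 h without overlap. The exact permutation p was 0.022 and the adjusted p 0.0719, and the region held 5 GATA words, 3 of them in the window shown.

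The 4 lost Gsc regions went at different times. The region 19748 bp downstream (chr12:104453450-104453714) stood at 60.6 and 69.2 at 0 h and 8.08 and 4.26 at 2 h and was called in no later library (exact permutation test, adjusted p = 0.0173). Its neighbour 20193 bp downstream (chr12:104452908-104453366) went from 97.8 and 99.0 at 0 h through 89.8 and 89.8 at 2 h, 82.0 and 86.0 at 4 h and 57.8 and 59.6 at 8 h to 52.9 and 51.7 at 16 h, was called once at 24 h (27.4) and never at 48 h (exact permutation test, adjusted p = 0.0600, or 0.0370 among regions called in at least 3 libraries). The region 34851 bp upstream (chr12:104507945-104508417) fell with time (exact permutation test, adjusted p = 0.0173), with 73.3 and 65.9 at 0 h, 25.6 and 64.5 at 2 h and 35.0 and 30.7 at 16 h and no call at 24 or 48 h.

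The other lost Gsc region, 11904 bp upstream (chr12:104484887-104485581), was at 80.1 and 64.6 at 0 h, absent at 2 h, called in 5 of the 6 libraries from 4 to 16 h at 2.35 to 48.7, and absent at 24 and 48 h (exact permutation test, adjusted p = 0.354). Of the falling Gsc regions, the one 19748 bp downstream passed the exact permutation test over all 14 libraries and not within serum (adjusted p = 0.0847), nor with the 50000 highest peaks per library (0.0614), with peaks within 200 bp merged (0.0575) or with 50% of the region covered (0.0655). The region at the Gsc start (chr12:104472771-104473473, midpoint 208 bp downstream, over the 5' part of Gsc and the gene Gm10000) was called in 3 libraries only, 1 each at 2, 24 and 48 h, at 3.75, 10.3 and 26.0. A region 32805 bp downstream was called in all 14 libraries, at 87.5 and 84.7 at 0 h and 70.6 and 71.7 at 48 h.

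**Figure D5:**
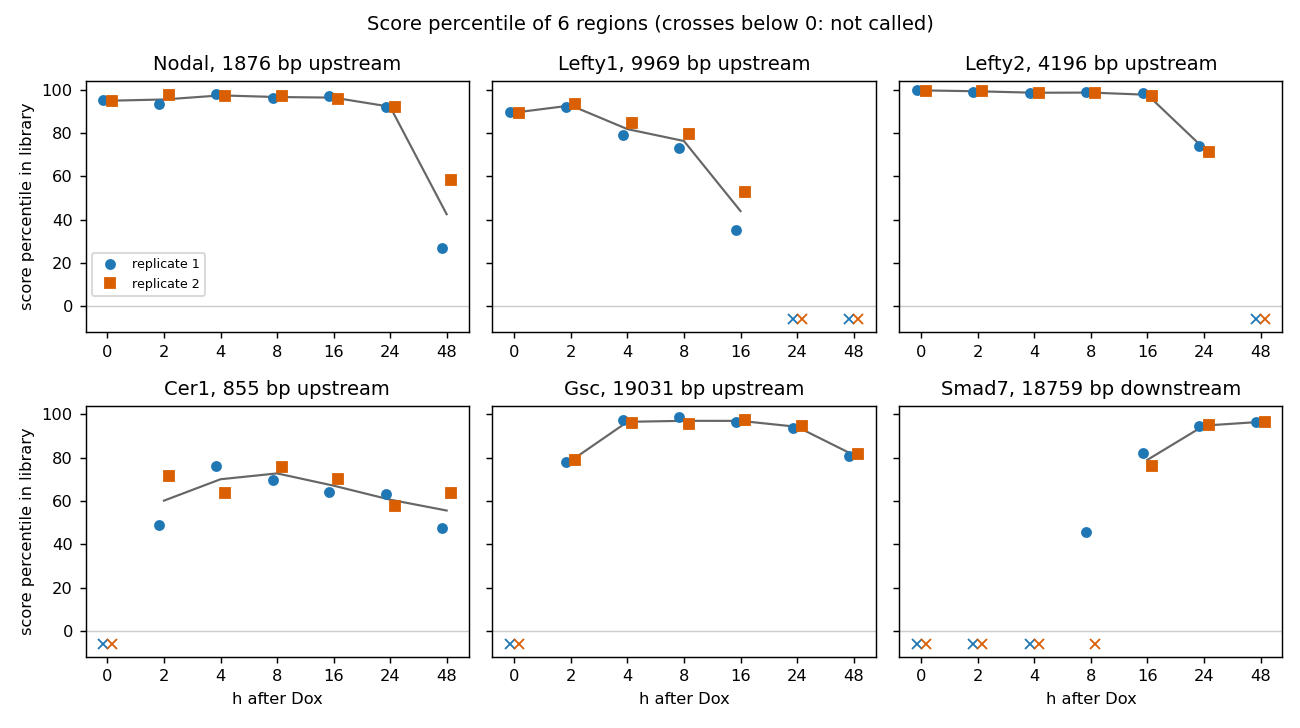
Score percentile within the library against hours after Dox (time points at equal spacing) for 6 regions, each with the highest median score percentile of its gene. Those of Tdgf1 and Skil are not shown. Both were called in all 14 libraries, and at 48 h the first ranked lower and the second higher than at 0 h. Blue circles are replicate 1, orange squares replicate 2, the line their mean, and crosses below 0 mark libraries without a call. The Nodal, Lefty1 and Lefty2 regions are high at 0 h and lower or not called at 48 h, and the Cer1, Gsc and Smad7 regions are not called at 0 h.

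Smad7, the inhibitory SMAD (ENSMUSG00000025880, plus strand of chromosome 18), had the most regions, 29, of which 9 to 17 were called per library. The counts were 11 and 9 at 0 h, 16 and 17 at 16 h and 12 and 11 at 48 h, so the libraries of 16 h lay above all others. Over the whole genome, too, more regions were called at 16 h (58410 and 62669) than at 0 h (54137 and 56966). Its promoter region (midpoint 383 bp upstream, reaching into the 5' UTR and over the overlapping non-coding gene Gm20544) was open in all 14 libraries, at 94.7 and 96.6 at 0 h, 63.0 and 37.4 at 4 h and 74.5 and 78.6 at 48 h, and the values of 0 h were above all later ones.

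Of the 5 Smad7 regions gained at 48 h, 4 lay within the gene. The intronic region 18759 bp downstream rose with time (exact permutation p = 0.00117, adjusted p = 0.0173): it was called in replicate 1 of 8 h at 45.5, then in all 6 libraries from 16 h on at 81.9 and 76.1, 94.5 and 95.1, and 96.7 and 96.4. The intronic region 3168 bp downstream also rose (exact permutation test, adjusted p = 0.0173) and was called only at 24 h (19.8 and 40.3) and 48 h (26.0 and 50.5). The region 8180 bp downstream, which overlaps a coding exon, was absent at 0 h and called in all 12 later libraries at 91.9 to 96.5 (exact permutation test, adjusted p = 0.0719). The intronic region 17681 bp downstream was called in all 6 libraries from 16 h on (50.7 to 82.5) and in 3 earlier ones at 3.56 to 13.1, and the region 44730 bp upstream was called in both libraries of 48 h (54.2 and 44.3) and in 4 earlier ones at 0.624 to 13.3, each in replicate 2.

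The 3 lost Smad7 regions were of different kinds. The region 6581 bp upstream fell with time (exact permutation test, adjusted p = 0.0173, or 0.0655 with 50% of the region covered), from 94.2 and 96.3 at 0 h through 86.8 and 88.3, 72.0 and 73.2 and 44.2 and 35.4 to 29.8 and 35.7 at 16 h, and had no call later. The intronic region 6647 bp downstream was called at 0 h only, at 56.1 and 50.3. The region 37723 bp upstream was at 68.8 and 71.6 at 0 h and was called in 3 later libraries. The lost Smad7 regions thus lay upstream and in an intron, beside gained ones in the same gene.

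Some Smad7 regions changed in ways that the comparison of 0 with 48 h does not count. The region 30055 bp downstream was called at 0 h (25.8 and 14.7), in none of the 6 libraries from 2 to 8 h, and in all 6 from 16 h on at 75.8 to 95.7, and it rose within the serum libraries (exact permutation test, adjusted p = 0.0346). The region 36512 bp upstream was called in 1 library of 0 h, at 5.21, and in all 12 later ones at 72.0 to 96.1. The region 22238 bp upstream was at 5.20 and 21.7 at 0 h, 73.4 and 73.4 at 2 h, 10.1 and 11.4 at 8 h and 93.2 and 94.1 at 48 h.

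Skil, which encodes the SMAD corepressor SnoN (ENSMUSG00000027660, chr3:31095058-31122577, plus strand), gained no region at 48 h, or 1 when 50% of a region had to be covered. The region 5482 bp upstream (chr3:31089354-31089798) was called only at 0 h, at 29.7 and 27.5 (exact permutation test, adjusted p = 0.0719), and the region next to it, 4741 bp upstream, was absent at 0 h, called in all 10 libraries from 2 to 24 h at 19.9 to 79.0, and called once at 48 h (26.4). The second lost region, 38590 bp upstream (chr3:31056264-31056672), was called at 21.8 and 29.8 at 0 h and in 7 of the 10 libraries between (exact permutation test, adjusted p = 0.530).

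The Skil promoter region (chr3:31094450-31095222, midpoint 222 bp upstream, reaching into the 5' UTR) was called in 10 libraries, at 3.20 and 23.0 at 0 h, in neither at 2 h, and at 53.7 and 54.3 at 24 h and 63.0 and 63.5 at 48 h. The region 37610 bp upstream was open in all 14 libraries, at 71.8 and 65.3 at 0 h and 88.6 and 89.8 at 48 h. Of the 4 transient Skil regions, 2 were called at a single time point with both libraries at 8 h or 24 h, 1 lay in the first part of the gene 652 bp downstream of the start and was called only at 2 h (10.0 and 19.7), and 1 was called in all 6 libraries from 2 to 8 h (29.5 to 61.7, 33814 bp upstream). The last of these fell with time within the serum libraries (exact permutation test, adjusted p = 0.0346).

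Without the libraries of 0 h, that is within serum medium, 3 member regions rose (against 5.65% of the 93409 regions tested) and 6 fell (against 8.94%). The 3 that rose were all at Smad7, at 3168, 18759 and 30055 bp downstream. The 6 that fell were those of Lefty1 at 9969 bp upstream, Gsc at 34851 bp upstream, Smad7 at 6581 bp upstream and 42897 bp downstream, Tdgf1 at 8039 bp downstream and Skil at 33814 bp upstream. The regions of Cer1 and Gsc that were called in every library but those of 0 h do not vary within serum and could not be tested there.

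A list of 22 other genes of Nodal and activin signalling had 181 regions, with at least 1 at every gene. Among these, 32 were gained (17.7%, against 14.5% of all regions) and 26 lost (14.4%, against 16.6%) at 48 h. Of the 153 tested, 15 rose (9.80%, against 6.83% of all regions tested) and 6 fell (3.92%, against 6.5%). Rising regions stood at 8 of the 22 genes: 3 each at Cfc1, a second co-receptor of the ligand, and Smad2, 2 each at the convertases Furin and Pcsk6 and at the feedback inhibitor Pmepa1, and 1 each at Acvr1b, Ski and Dact2. Falling regions stood at 4 genes, with 3 at Inhbb, which encodes an activin subunit, and 1 each at the receptor Acvr2b, Pmepa1 and Dact2. Regions lost at 48 h were most frequent at Inhbb with 6 of 12, followed by Acvr1b, Acvr2b and Smad3 with 3 each, and 6 genes had no region that rose, fell or was gained or lost at 48 h.

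Words of the GATA kind stood in 5 of the 9 member regions gained at 48 h (55.6%) and in 3 of the 13 lost (23.1%), where the shares over all gained and all lost regions were 57.7% and 22.4%. Over the whole region, the word stood in 6 of the 9 gained (66.7%, against 74.5% of all gained). It stood in 3 of the 13 lost (23.1%, against 55.1% of all lost). The OCT word stood in 0 of the 9 gained and 2 of the 13 lost regions (15.4%), which were those of Lefty2 at 4196 bp and Skil at 5482 bp upstream, against 3.71% of all gained and 9.52% of all lost regions. The FOXH1 word stood in the same 2 lost regions (15.4%, against 8.55% of all lost regions). It also stood in 1 gained region, that of Cer1 at 855 bp upstream (11.1%, against 6.98% of all gained regions). Over the whole region, the FOXH1 word stood in 6 of the 13 lost (46.2%, against 23.8% of all lost) and 2 of the 9 gained (22.2%, against 17.2%). The OCT word stood in 4 of the 13 lost (30.8%, against 19.8%) and 0 of the 9 gained (against 8.44%). In the central 200 bp, the SMAD word stood in 5 of the 9 gained (55.6%, against 42.8%) and 4 of the 13 lost (30.8%, against 42.3%). Over the whole region, the SMAD word stood in 7 of the 9 gained (77.8%, against 71.9%) and 10 of the 13 lost (76.9%, against 79.0%). With 9 and 13 regions these shares are a description of the letters in these windows and regions.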

How the data were processed

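ATAC-seq was measured in 14 libraries, 2 at each of 7 time points. The authors processed the reads with the ENCODE ATAC-seq pipeline, and the file names point to an irreproducible discovery rate threshold of 0.05 on pseudoreplicates of each library, followed by a blacklist filter. Replicates were not pooled. The submitters' processing notes name the builds mm10 and GRCm38 and the tool deepTools. Each deposited peak carries 1 unnamed value, treated as a score whose scale the authors do not state, and used only as a rank within its own library. The highest percentile was taken where a region held several peaks of a library.

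Peaks were merged and assigned with Python 3.11.15, numpy 2.4.6 and pandas 2.3.3 (figures with matplotlib 3.10.9). A region was called where at least 1 bp was covered, and 0 of 124598 regions ended past a chromosome of GRCm38. Regions were named when they passed the trend test, were gained or lost at 48 h, were the nearest to a start within 1 kb, or had the highest median score percentile of their gene, and others were named after their values were seen. Like replicate numbers did not pair the libraries: over 21 pairs of time points their deviations correlated between -0.0152 and 0.0124. The test of read counts in the study's methods needs reads and was not run on peak lists, which hold no depth. The paper refers to a supplement for the numbers of reads, and these were not used here. The trend test was tested on simulated data. The genes, gene lists and regions shown were chosen with earlier results of these data known. Groups were taken from the sample labels. Alternatives were tried for the peaks used, the gene start, the distance limit, merging, the covered share of a region, the libraries and the time points.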

Additional observations from a re-analysis of the deposited data

How the results depend on the processing

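Over 447 alternatives for 50 results, 382 kept their side of the threshold or, for counts, an equal or similar value. Part of this agreement was fixed in advance and is no measure of stability. The trend test of a region does not use the gene start or the distance limit, so its result could not change with them. The counts per gene could not change when any region within 50 kb was taken. Named regions that did not pass with 14 libraries were counted as kept when they failed again. Counts have no direction to change. No trend of a named region that passed the threshold in either setting was reversed. A limit of 20 kb left 45 regions and 6 transient ones. Requiring a call in at least 1 library against neither gave 14 gained and 20 lost regions at 48 h and 15 gained and 10 lost at 2 h (23.1%, 25.6%, 15.2% and 13.9% of all regions). With 50% of the region covered 2 regions fell with time. A search of the whole region, which covers more sequence, found the GATA word in 39 member regions (51.3%, against 57.8% of all regions), the FOXH1 word in 14 (18.4%, against 17.7%), the SMAD word in 55 (72.4%, against 71.5%) and the OCT word in 6 (7.89%, against 11.4%). An alternative chosen after seeing the data, counting any region within 50 kb of a member start whichever gene was nearest, gave 126 regions. Of these 15 were gained and 18 lost at 48 h, against 14.5% and 16.6% of all regions. With time 4 rose and 5 fell, against 6.83% and 6.5% of all regions tested. With 1 library per time point, leaving out each replicate number in turn, 12 to 13 regions were gained and 15 to 19 lost at 48 h, 13 to 16 gained and 11 to 12 lost at 2 h, and 20 to 23 were transient. Over all regions the shares were larger too. They were 20.4% to 21.1% gained and 22.3% to 23% lost at 48 h. At 2 h they were 13.8% to 14.5% and 12.8% to 12.9%, and 24% to 24.8% were transient. In these subsets 0 member regions rose and 0 fell, and 0 of all regions passed. For each named region that passed with 14 libraries, the adjusted p was then 0.447 or 0.436 (exact permutation p of 0.0571 at the lowest), since fewer libraries allow fewer distinct p-values.

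Over regions, the deviations of like-numbered libraries did not correlate, and the numbers were not treated as pairs. Replicate 2 nevertheless had more peaks at every time point. With a replicate block, 2 member regions rose and 4 fell (6864 and 6390 of all regions, against 7230 and 6871 without it). The block changed no call of a named region. The lists hold no depth, and a missing peak is no proof of closed chromatin.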

Other observations

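Regions near a member gene that lay closer to the start of another gene were not among the 76. Around Lefty1 and Lefty2, Tmem63a had 10 regions within 50 kb of the Lefty1 start, of which 2 were gained and 1 was lost at 48 h and 1 rose with time. Sde2 had 5 regions within 50 kb of Lefty2, with 1 gained at 48 h. Around Nodal, Pald1 had 6 regions, of which 2 were lost at 48 h and 1 fell with time, and Eif4ebp2 had 4, none of them gained or lost. Around Tdgf1, Lrrc2 had 5 regions, with 1 gained, 1 lost and 1 rising. No such region lay within 50 kb of the Smad7 start. Over all regions, 14.5% were gained and 16.6% lost at 48 h, and 6.83% and 6.5% of those tested rose and fell. With so few regions per gene, these counts are a description only.

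Among 7142 genes with at least 5 regions, the genes whose number of called regions over the 14 libraries was most like that of a member were Itga3 for Nodal (Pearson's r across libraries, 0.840), Gltp and Syt9 for Lefty1 (0.959 each), Setd1b for Lefty2 (0.843), Palm2 for Gsc (0.908), Fam180a for Smad7 (0.949) and Abi3 for Skil (0.810). Cer1 and Tdgf1 had fewer than 5 regions and were not compared. These values are a description without a test, since all genes share the number of peaks of each library, and nothing follows from them about shared control.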
